A study of Mus musculus with 8 samples.

Results

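Satb1, a single gene measured by 3 probe sets, was followed across 8 expression arrays of mouse embryonic fibroblasts that carried or lacked Med23. It is 1 of the 12393 genes that a probe set of the array names alone, and each probe set whose annotation gives Satb1 and no other gene was taken. Satb1 was chosen by its measured loss in knockout cells, so its knockout against wild-type values are a description and carry no test. In the knockout arrays its 3 probe sets read between 2.70 and 58.7 signal units, whereas in the wild-type arrays they read between 1875 and 9121.

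The cells were fibroblasts from E11 embryos that had been passaged through crisis, when a primary culture ceases to grow and then yields cells that divide without limit. All 4 groups were starved for 16 h in 0.5% fetal bovine serum (FBS). They were Med23-/- knockout (KO) cells given 20% FBS for 30 min, KO cells kept starved, wild-type (WT) cells given 20% FBS for 30 min and WT cells kept starved, with 2 arrays each. The comparison was set up to find genes whose answer to serum depends on MED23, the Mediator subunit that several signal-regulated transcription factors contact to reach RNA polymerase II. The labels state duplicate samples but not whether these were separate cultures, nor whether a genotype is more than 1 cell line. The p-values given here therefore measure the spread between these samples, which may be technical, and genotype cannot be told apart from any other difference between the lines.

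SATB1 is a nuclear protein that binds base-unpairing, AT-rich DNA at the foot of chromatin loops through CUT domains and a homeodomain, and it recruits histone deacetylases, acetyltransferases and nucleosome remodellers there. It is best known in developing T cells, where mice without it have a severe block in thymocyte maturation, and it also acts in epidermis, cortical neurons and breast carcinoma cells. Fibroblasts are not among the cells in which SATB1 is usually studied.

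The Satb1 gene lies on the minus strand of mouse chromosome 17, and RefSeq lists 5 start sites with a window that runs from upstream of each start to just past it (build GRCm38.p6). The windows of the 2 most upstream starts are shown because they are the ones that hold any of the promoter motifs searched, and because all 3 probe sets of the gene were lost in KO cells. They are chr17:51833241-51833540 and chr17:51832598-51832897, printed 5′ to 3′ on the strand of the gene with motif matches in capitals.
Satb1 window 1: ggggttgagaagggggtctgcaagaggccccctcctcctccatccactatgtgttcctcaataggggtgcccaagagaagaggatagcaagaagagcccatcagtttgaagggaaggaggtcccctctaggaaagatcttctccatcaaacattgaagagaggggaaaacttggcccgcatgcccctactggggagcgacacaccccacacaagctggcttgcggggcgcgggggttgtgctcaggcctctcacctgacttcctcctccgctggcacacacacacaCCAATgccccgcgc
Satb1 window 2: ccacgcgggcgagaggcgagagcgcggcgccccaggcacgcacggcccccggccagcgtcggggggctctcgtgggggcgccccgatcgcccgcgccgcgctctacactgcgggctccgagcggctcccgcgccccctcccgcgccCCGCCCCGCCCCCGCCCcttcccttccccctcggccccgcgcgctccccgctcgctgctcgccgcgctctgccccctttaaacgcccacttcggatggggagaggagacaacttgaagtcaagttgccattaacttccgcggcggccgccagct
The first window holds 1 CCAAT box (letters CCAAT), which 37.4% of the 32817 promoter windows of the mouse table also hold. The second holds 3 GC boxes (letters GGGCGG), all read on the opposite strand, and 35.6% of the windows hold at least 1. The 3 windows further downstream, 2 of which overlap each other, hold neither of these motifs. None of the 5 windows holds a TATA box (TATAAA, in 13.6% of windows), an ETS site (CCGGAAG, in 8.86%) or the CArG box that serum response factor binds (in 1.63%), with both strands searched. The second window is 76.7% G and C and the first 59.0%, against a median of 52.7% over all windows. A match describes the letters of the window only, and no measurement here bears on binding or on which start is used.

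The deposited signals share 1 scale, with a trimmed mean of 2500.6 to 2500.8 on each array, and their medians ran from 765.6 to 924.4. Replicates correlated across probe sets at r = 0.976 to 0.984, arrays of 1 genotype in different serum states at 0.930 to 0.962, and arrays of different genotype at 0.750 to 0.805. Med23 itself, measured by probe set 1452064_at, read 34.6 and 36.9 in KO serum cells and 28.0 and 133 in KO starved cells, against 3595 and 3577 in WT serum cells and 4901 and 5411 in WT starved cells. These readings, low on every KO array and high on every WT array, matched the genotype labels. The KO minus WT difference of Med23 on the log2 scale was -6.12 after serum (limma adjusted p = 3.52e-06) and -6.00 in starved cells (adjusted p = 3.81e-06). Med23 passed the low-signal filter, described further on, through its WT arrays alone, so these differences are taken against KO readings below the filter level. The sources used here do not say whether this probe set lies within the Med23 deletion.

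Probe set 1416007_at read 19.1 and 6.39 in KO serum cells and 5.10 and 58.7 in KO starved cells, against 6319 and 8216 in WT serum cells and 7311 and 8269 in WT starved cells. Probe set 1416008_at read 9.29 and 7.69 in KO serum cells and 16.8 and 2.70 in KO starved cells, against 8156 and 8162 in WT serum cells and 8151 and 9121 in WT starved cells. Probe set 1436182_at read 20.2 and 25.0 in KO serum cells and 23.6 and 31.7 in KO starved cells, against 2203 and 1994 in WT serum cells and 1875 and 2001 in WT starved cells. On each probe set all 4 KO arrays were low and all 4 WT arrays were high, in both serum states, and the genotypes did not come near each other. Probe sets 1416007_at and 1416008_at are annotated to the same source sequence, so they are not independent readings, while 1436182_at is annotated to another.

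**Figure D1:**
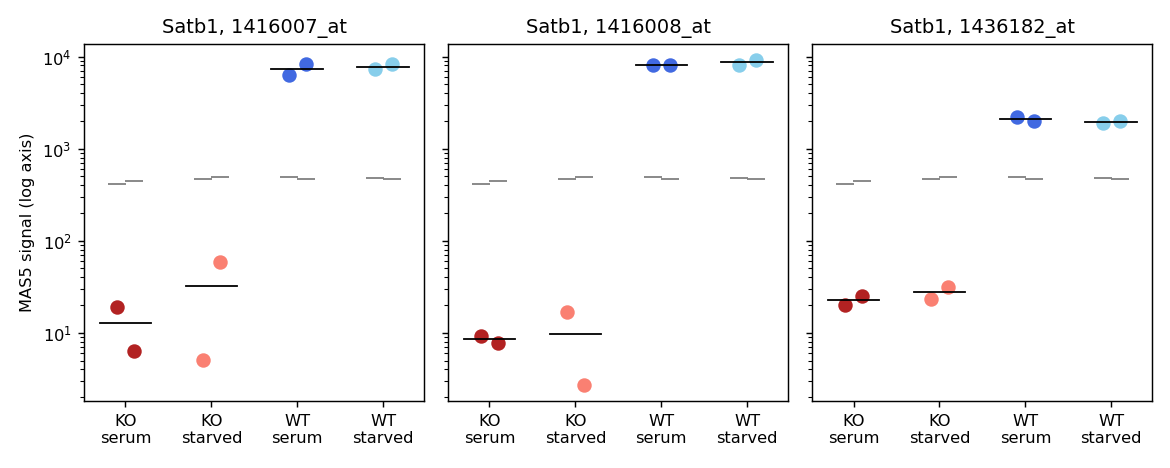
Signal of the 3 Satb1 probe sets on a log axis, with 1 point per array, KO groups left of WT groups and a black line at each group's mean. The short grey dashes mark the level each array had to reach to count towards the low-signal filter, 413 to 497 signal units, and every KO point lies below them while every WT point lies above.

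The lowest WT array exceeded the highest KO array 108-fold on 1416007_at, 485-fold on 1416008_at and 59.2-fold on 1436182_at. The WT arrays were tight, the highest being 1.31, 1.12 and 1.18 times the lowest on these 3 probe sets in the same order. The KO arrays spread further in relative terms, by 11.5, 6.23 and 1.57 times, and their order was not shared: starved KO array 2 was the highest KO array on 1416007_at and the lowest on 1416008_at. Within an array, Satb1 lay between the 0.102 and the 12.2 percentile of all probe sets in KO cells and between the 63.2 and the 91.2 percentile in WT cells. All 3 probe sets passed the filter on low signal, which a probe set passes when 2 or more arrays read it no lower than the 40th percentile of that array, and each did so through its WT arrays alone.

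On the log2 scale of signal plus 16, the KO minus WT difference after serum was -8.01 ± 0.495 on 1416007_at, -8.38 ± 0.301 on 1416008_at and -5.78 ± 0.321 on 1436182_at (SE of the limma fit, 2 arrays a group). In starved cells it was -7.62, -8.45 and -5.49 on the same probe sets, with the same SEs. These values chose the gene and are given without a test. As a reading of the arrays as a whole, 50.2% of the 14947 probe sets tested were called different between the genotypes after serum, at a limma adjusted p under 0.05 (22.7% higher and 27.5% lower in KO), and 47.6% in starved cells (22.8% higher and 24.8% lower). Centring each array on its median instead turned the split after serum to 4474 higher against 3075 lower, since it moves every difference there up by 0.163, and the starved split to 3650 higher against 3354 lower. A bulk array cannot tell fewer cells with Satb1 RNA from less Satb1 RNA in each cell.

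**Figure D2:**
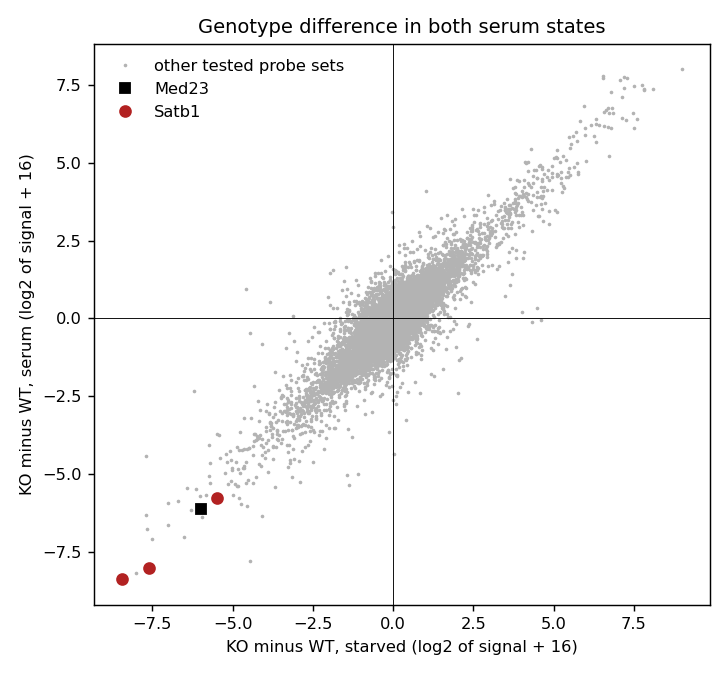
KO minus WT difference in starved cells (horizontal axis) and after serum (vertical axis), in log2 of signal plus 16, for each of the 14947 tested probe sets. The 3 Satb1 probe sets (red) sit at the lower left end, at -8.45 and -8.38, at -7.62 and -8.01, and at -5.49 and -5.78, with Med23 (black square) at -6.00 and -6.12.

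The size of the loss depended on the constant added before taking logs, because the KO signals were close to 0. The mean difference over both serum states for 1416008_at was -9.90 with a constant of 1, -8.41 with 16, -6.86 with 64 and -5.03 with 16 times 16. For 1416007_at the same values were -8.94, -7.81, -6.49 and -4.80, and for 1436182_at they were -6.29, -5.63, -4.55 and -3.01. The fold itself is thus not fixed by these arrays, whereas the direction was the same at each constant and on each probe set.

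The position of Satb1 among all falls depended on it too. With a constant of 16, 1416008_at had the largest fall of the 14947 probe sets, 1416007_at the third and 1436182_at the 24th. With a constant of 1 they were at ranks 1, 2 and 20, with 64 at ranks 2, 5 and 35, and with 16 times 16 at ranks 5, 7 and 83. Without starved KO array 2 the largest Satb1 fall was at rank 2. Just outside Satb1, the next largest mean falls were Asb4 at -8.09, Cyp1b1 at -7.29 and an unnamed probe set (1425145_at) at -7.22. Asb4 encodes a substrate receptor of a ubiquitin ligase, and Cyp1b1 a cytochrome P450 that the aryl hydrocarbon receptor induces.

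In WT cells, where Satb1 was well measured, 30 min of serum gave no detectable change on any of its 3 probe sets, a comparison that the choice of the gene did not use. The serum minus starved difference was -0.11 ± 0.495 on 1416007_at (95% interval -1.21 to 0.99, limma adjusted p = 0.945). It was -0.08 ± 0.301 on 1416008_at (interval -0.75 to 0.59, adjusted p = 0.933) and 0.11 ± 0.321 on 1436182_at (interval -0.60 to 0.83, adjusted p = 0.906). Of all tested probe sets, 4.14% were called with serum in WT cells (2.44% higher and 1.7% lower). The narrowest interval, that of 1416008_at, spans a serum to starved ratio of 0.595 to 1.51, so this fit does not settle a change within that range. Its SE is pooled over all 8 arrays, so the KO readings near the floor enter it. On 1416008_at the SD was 102% of the mean in KO starved cells, against 7.94% in WT starved and 0.048% in WT serum cells. The intervals and p-values are therefore not the precision of the WT arrays alone.

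In KO cells all Satb1 readings lay below the filter level, so a serum difference there is one between values near the floor and carries no information on a response. The fitted values were -0.50 ± 0.495 on 1416007_at, -0.02 ± 0.301 on 1416008_at and -0.17 ± 0.321 on 1436182_at. That of 1416007_at rests on single arrays, since starved KO array 1 read 5.10 and array 2 58.7, and without starved KO array 1 it was -1.41. The serum response in KO minus that in WT was -0.39, 0.06 and -0.29 on 1416007_at, 1416008_at and 1436182_at, given without a test because it is also the difference between the genotype values that chose Satb1.

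The genes whose profile over the 8 arrays was most like that of 1416007_at, the Satb1 probe set whose log2 signal averaged highest over the arrays, were ranked by the root mean square difference of centred log2 profiles. Asb4 was nearest at 0.415, closer than the other Satb1 probe sets, which lay at 0.763 (1416008_at) and 1.19 (1436182_at). Next came Pkp1, a plaque protein of desmosomes, at 0.731, Parm1 at 0.813, Cdkn2b, an inhibitor of cyclin D kinases, at 0.840 and Cyp1b1 at 0.851. Med23 followed at 0.913, then Sod3, an extracellular superoxide dismutase, at 0.940, Rims2, a scaffold of synaptic vesicle release, at 0.962, Fgf13 at 1.05 and Gdpd1 at 1.08. Each of these 10 was low on all 4 KO arrays and high on all 4 WT arrays. Their Pearson correlations with 1416007_at lay between 0.977 (Cyp1b1) and 0.997 (Med23) over 8 arrays that share the split by genotype, and are given as a description.

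**Figure D3:**
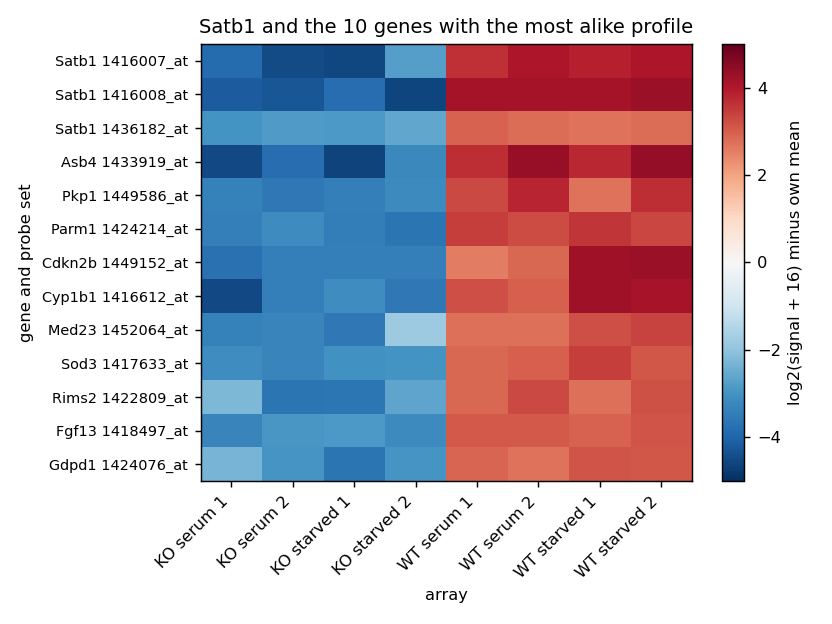
Log2 of signal plus 16 on each of the 8 arrays, minus the probe set's own mean, for the 3 Satb1 probe sets and the 10 genes with the most alike profile, with KO arrays left of WT arrays. All 13 profiles are below their mean on the 4 KO arrays and above it on the 4 WT arrays, and the WT serum arrays of Cdkn2b and Cyp1b1 lie visibly below their WT starved arrays.

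Within WT cells some of these profiles had a step between the serum states. Cdkn2b read 3712 and 4696 in WT serum cells against 11875 and 12765 in WT starved cells, and Cyp1b1 read 15078 and 12852 in WT serum cells against 29901 and 27572 in WT starved cells. The serum minus starved difference in WT cells was -1.56 for Cdkn2b (limma adjusted p = 0.00299) and -1.04 for Cyp1b1, which did not pass the test (adjusted p = 0.0938). Med23, Sod3 and Gdpd1 also had both WT serum arrays below both WT starved arrays, and none of these 3 passed the test. On each Satb1 probe set the WT serum and starved arrays overlapped. Asb4, like Satb1, overlapped between them, with 10375 and 16648 after serum and 10976 and 17178 when starved.

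A loss on every probe set of a gene was uncommon. Of 22626 probe sets, 377 (1.67%) lay below the filter level on all 4 KO arrays and above it on all 4 WT arrays, and 362 (1.6%) showed the opposite. The first group named 303 genes. Among the 1899 genes with at least 3 probe sets, 2 had every one of them in that group, namely Satb1 and Bpgm, which encodes a phosphoglycerate mutase that makes 2,3-bisphosphoglycerate. This count uses the same genotype difference that chose Satb1 and describes it only.

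Of the CUT domain family to which Satb1 belongs, Cux1 was, of the other members reported here, the one with enough signal to test. Cux1 is a broadly expressed repressor, and it read 1717 and 2402 in KO serum cells and 2421 and 2137 in KO starved cells, against 1949 and 2650 in WT serum cells and 2182 and 2795 in WT starved cells. The groups overlapped, and the KO minus WT difference was -0.16 after serum (limma adjusted p = 0.551) and -0.12 when starved (adjusted p = 0.676). Other Cux1 probe sets were called lower in some comparisons. Cux2, Onecut1 and Onecut3 stayed below the filter, and Onecut2 had no probe set that names it alone.

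Proteins reported to work with SATB1 on chromatin moved in both directions. Of 17 tested partners, 4 were higher and 4 lower in KO cells after serum, and 2 were higher and 4 lower when starved, with medians of 0.10 and -0.07 beside -0.07 and -0.01 over all tested probe sets. The 8 and 6 calls among 17 stand beside the 50.2% and 47.6% of all tested probe sets called in these comparisons, shares that the partners did not exceed. Smarca4, the ATPase of the BAF remodeller, read 7278 and 7338 in KO serum cells and 9358 and 9431 in KO starved cells, against 15898 and 15637 in WT serum cells and 15990 and 16013 in WT starved cells. It was lower in KO cells, with a difference of -1.11 after serum (limma adjusted p = 9.04e-06) and -0.77 when starved (adjusted p = 0.000107) and no overlap of arrays. Ctbp1, a corepressor, was lower too, at -0.58 after serum and -0.43 when starved, the starved call being lost without WT starved array 1 (-0.36, limma adjusted p = 0.0592). Rbbp4, a histone chaperone of deacetylase complexes, gave -0.54 when starved and -0.29 after serum, and the serum call was lost without any 1 of the 4 serum arrays (limma adjusted p = 0.0693 to 0.223) or with arrays centred on their median (-0.13). Its 2 dimmer probe sets were lower in both states, 1454791_a_at at -2.33 when starved and -0.43 after serum (limma adjusted p = 4.25e-07 and 0.0163) and 1454875_a_at at -0.90 and -0.52 (adjusted p = 0.000607 and 0.0125). Crebbp, an acetyltransferase, was higher, at 0.86 when starved and 0.53 after serum, the serum call being lost without WT serum array 1 (0.42, limma adjusted p = 0.0681) or KO serum array 1 (0.51, adjusted p = 0.056). Without WT serum array 1, WT serum array 2 or KO serum array 1, the count of 8 partners called after serum was 4, 5 and 4.

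Smarca5, the ATPase of the ISWI remodeller that SATB1 recruits, was lower in starved KO cells, at -0.54 (limma adjusted p = 0.00227), and gave 0.21 after serum (adjusted p = 0.122). Its other probe sets did not pass the test when starved, at -0.16 on 1424205_at and -0.13 on 1424207_at (limma adjusted p = 0.462 and 0.368). Hdac1, the deacetylase most often named with SATB1, did not differ beyond the spread, at -0.01 after serum and -0.07 when starved. Chd4, the ATPase of the NuRD complex, was 0.76 higher after serum (limma adjusted p = 0.048), and leaving out any 1 of the 4 serum arrays or of the 2 WT starved arrays ended that call (adjusted p = 0.0626 to 0.213). Another Chd4 probe set, 1436343_at, was called in the opposite direction, at -0.54 after serum (limma adjusted p = 0.0162).

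Genes of genome folding and matrix attachment gave 6 higher and 9 lower of 28 after serum and 5 higher and 6 lower when starved, with medians of -0.14 and 0.02. Those 15 and 11 calls of 28 stand near the 50.2% and 47.6% of all tested probe sets. With serum itself, 2 rose and 5 fell in KO cells and 1 rose and 1 fell in WT cells, near the 23.1% and 4.14% of all tested probe sets called with serum. In KO cells that share was 9.33% higher and 13.8% lower, a split that centring each array on its median turned to 1955 higher and 992 lower, since it moves every KO serum difference up by 0.157. Top2a, the topoisomerase of dividing cells, read 918 and 1504 in KO serum cells and 1050 and 1805 in KO starved cells, against 6508 and 5831 in WT serum cells and 6172 and 6147 in WT starved cells. Its KO minus WT difference was -2.37 after serum (limma adjusted p = 5.62e-05) and -2.15 when starved (adjusted p = 0.000109). Smc2, a condensin subunit, differed by -1.64 and -1.81, and Hmgb2, a DNA-bending protein, by -0.80 and -0.89, all past the test. Tmpo, a lamina-associated protein, was higher in KO by 1.07 and 0.86, and so were 2 of its other probe sets, while the fourth (1426020_at) was 1.57 higher when starved (limma adjusted p = 0.0218) and gave -0.41 after serum, not past the test (adjusted p = 0.502). Ctcf, the insulator protein, and the cohesin subunits Rad21 and Smc1a did not pass the test between genotypes in either state, except that Rad21 was 0.53 higher in starved KO cells without KO starved array 1 (limma adjusted p = 0.0328). The cohesin subunits Smc3, at 0.44 after serum and 0.35 when starved (limma adjusted p = 0.0148 and 0.0441), and Stag2, at 0.31 in both states (adjusted p = 0.0274 and 0.0304), were higher in KO. Each of these 4 calls was lost without some single arrays: for Smc3 WT serum array 2 or KO serum array 1 after serum, and any 1 starved or WT serum array when starved (limma adjusted p = 0.0505 to 0.223), and for Stag2 either WT serum array or KO serum array 1 after serum, and either WT starved array or KO starved array 2 when starved (adjusted p = 0.0632 to 0.19). Pds5a, which binds cohesin, was lower after serum, at -0.63 (limma adjusted p = 0.00325), and gave -0.31 when starved (adjusted p = 0.0814), where it passed without KO starved array 1 (-0.44, adjusted p = 0.0415). Without WT starved array 2 or KO starved array 2, the 11 calls in starved cells became 4 and 7.

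Most genes that SATB1 is known to govern in mouse T cells were not measurable in these fibroblasts. Of 21 members, 17 lay below the filter, among them Il2ra, Cd4, Cd8a, Rag1 and Rag2. Of the 4 tested, 1 was higher and 2 lower in KO after serum, and 1 was lower when starved, beside 50.2% and 47.6% of all tested probe sets called. Myc, the growth-promoting factor, read 18407 and 17264 in KO serum cells and 5066 and 5646 in KO starved cells, against 10103 and 9077 in WT serum cells and 6096 and 6644 in WT starved cells. It was 0.90 higher in KO after serum (limma adjusted p = 0.000138) and did not pass the test when starved (-0.25). Zbtb7b, which sets the CD4 T cell fate, was lower after serum, at -1.31 (limma adjusted p = 0.00532), as was Bcl2, a survival protein (adjusted p = 0.00584). Bcl6, a repressor, was lower when starved, at -1.01. Without KO starved array 1 the single call in starved cells became 2.

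The genes reported to depend on SATB1 in human breast carcinoma cells held the largest genotype differences of these lists in both directions after serum. They also held the largest falls when starved, where Gata3 of the regulators listed further on had the largest rise. The list does not record whether SATB1 raises or lowers each gene. Of 20 tested, 7 were higher and 5 lower in KO after serum, and 6 were higher and 6 lower when starved, with medians of -0.16 and 0.18. The 12 calls of 20 in each state stand beside the same 50.2% and 47.6% of all tested probe sets. In both states 6 of the 20 were higher and 4 lower in KO. The share of all tested probe sets called alike in both states was not counted. Tgfb1, a growth factor, read 280 and 289 in KO serum cells and 457 and 294 in KO starved cells, against 6296 and 7336 in WT serum cells and 5519 and 4643 in WT starved cells. Its difference was -4.50 after serum (limma adjusted p = 2.2e-07) and -3.73 when starved (adjusted p = 5.98e-07). Tgfb1 passed the filter through its WT arrays alone.

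Cd82, a tetraspanin known as a metastasis suppressor, read 307 and 468 in KO serum cells and 431 and 377 in KO starved cells, against 5643 and 5304 in WT serum cells and 6081 and 5399 in WT starved cells. Its difference was -3.79 after serum (limma adjusted p = 4.16e-07) and -3.78 when starved (adjusted p = 4.1e-07), while its other probe set gave -0.29 and -0.60, neither past the test. S100a4, a calcium-binding protein of motile cells, read 5604 and 7695 in KO serum cells and 6057 and 7006 in KO starved cells, against 574 and 633 in WT serum cells and 709 and 1130 in WT starved cells. It was higher in KO by 3.41 after serum (adjusted p = 1.77e-06) and 2.84 when starved (adjusted p = 5.62e-06). Cldn1, a tight junction protein, was higher in KO by 2.81 and 2.46. The other genes higher in both states were the receptor Egfr (0.64 after serum and 1.48 when starved), the matrix protease Mmp2 (1.01 and 1.14), the growth factor Vegfb (1.16 and 1.20) and the filament protein Vim (0.33 and 0.50). Those lower in both were the matrix protease Mmp3 (-2.48 and -2.30) and the nucleoside diphosphate kinase Nme1 (-1.21 and -1.39). Of these 6, the serum call of Egfr was lost without WT serum array 2 (limma adjusted p = 0.0575), that of Vim without any 1 serum array (adjusted p = 0.0932 to 0.179), and the starved call of Mmp3 without WT starved array 1 (-1.32, adjusted p = 0.0592). With quantile normalization Vim lost both calls, at 0.107 after serum (limma adjusted p = 0.184) and 0.055 when starved (adjusted p = 0.502). Mmp3 passed the filter through its WT arrays alone, so its differences are taken against KO readings below the filter level.

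Of 6 activity genes that depend on SATB1 in mouse cortical neurons, Fos, Fosb, Egr1, Egr2 and Arc rose with serum in both genotypes, and Bdnf did not pass the test in either. Fos reached 46808 and 44542 in KO serum cells, against 1862 and 1359 in KO starved cells, and 28322 and 24153 in WT serum cells, against 916 and 737 in WT starved cells. Its serum response was 4.83 in KO cells (limma adjusted p = 5.79e-08) and 4.97 in WT cells (adjusted p = 1.48e-07). Arc, a cytoskeletal protein of synapses, rose by 6.51 in KO cells and 5.83 in WT cells, and Fosb by 5.83 and 6.13. These 5 calls of 6 stand beside 23.1% of all tested probe sets called with serum in KO cells and 4.14% in WT cells. Between genotypes, 2 of the 6 were called after serum, both higher in KO, and 2 were higher and 1 lower when starved, beside 50.2% and 47.6% of all tested probe sets. The lower one was Egr1, at -2.15 (limma adjusted p = 3.1e-06), whose serum response was 4.61 in KO cells and 2.60 in WT cells. Without WT serum array 2, KO serum array 1 or KO serum array 2 the 2 calls after serum became 1.

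Factors reported to act on the Satb1 gene itself differed in direction. Gata3, a T helper cell factor, read 719 and 901 in KO serum cells and 1665 and 1468 in KO starved cells, against 36.7 and 174 in WT serum cells and 90.4 and 194 in WT starved cells. It was higher in KO by 3.04 after serum (limma adjusted p = 0.00112) and by 3.40 when starved (adjusted p = 0.000587). Gata3 passed the filter through its KO arrays alone, so these differences are taken against WT readings below the filter level. Stat6, which interleukin 4 activates upstream of Satb1 in T helper cells, was lower, at -0.85 after serum and -0.73 when starved. Rela, an NF-kB subunit, was lower at -0.65 when starved. It gave -0.31 after serum, a call lost without any 1 of the 4 serum arrays (limma adjusted p = 0.0586 to 0.144) and with arrays centred on their median (-0.14). Trp63, which drives Satb1 in mouse epidermis, gave -0.91 and -1.04 without passing the test (limma adjusted p = 0.0858 and 0.0571). Without WT serum array 1 both passed (-1.48 and -1.04, limma adjusted p = 0.0176 and 0.0279), as did the starved value without WT serum array 2 (adjusted p = 0.0325). Foxp3 lay below the filter, and Tcf7 and Nfkb1 had no probe set that names them alone.

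**Figure D4:**
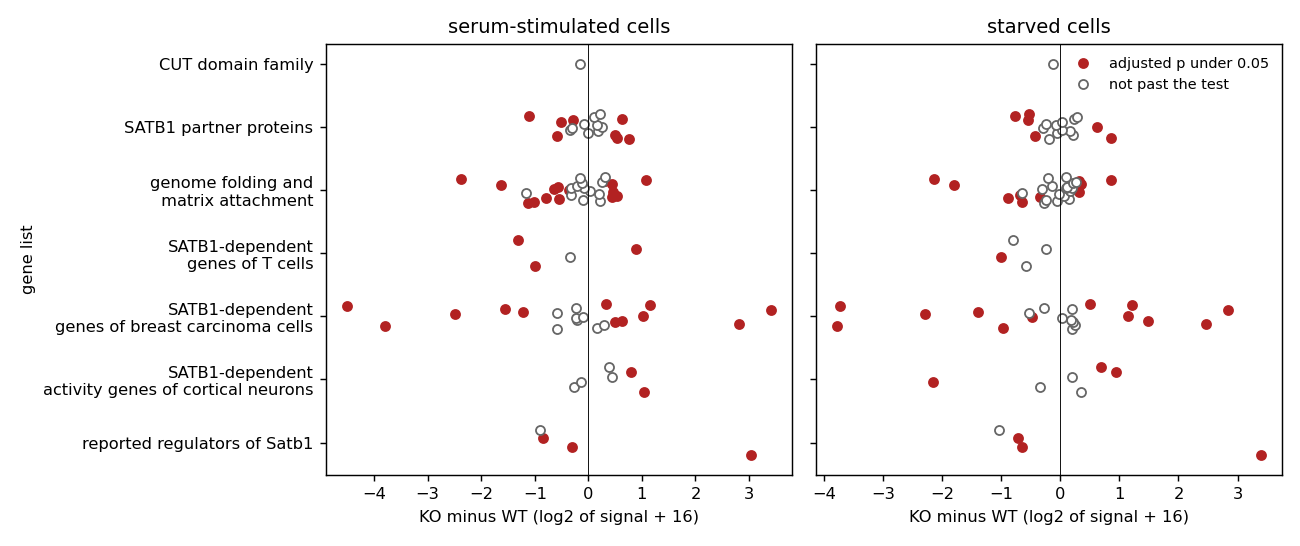
KO minus WT difference in log2 of signal plus 16 for each tested gene of the 7 lists around SATB1, after serum (left panel) and in starved cells (right panel). Filled points passed the test at an adjusted p under 0.05, and 4 of the lists have such points on both sides of 0 in both panels.

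The measured genes that lie nearest Satb1 on chromosome 17 did not move as a block. In RefSeq order, Mocs1, Dazl and Plcl2 come before Satb1, and Rab5a, Kat2b and Sgo1 after it. Plcl2, a phospholipase C-like protein, read 35.7 and 52.3 in KO serum cells and 119 and 238 in KO starved cells, against 734 and 951 in WT serum cells and 649 and 914 in WT starved cells. It was lower in KO cells, at -3.84 after serum (limma adjusted p = 3.73e-05) and -2.08 when starved (adjusted p = 0.00185). Sgo1, the shugoshin that guards sister chromatid cohesion in dividing cells, was lower as well, at -4.14 after serum (limma adjusted p = 6.38e-05) and -3.73 when starved (adjusted p = 0.000127). Both Plcl2 and Sgo1 passed the filter through their WT arrays alone.

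Between Satb1 and Sgo1, Rab5a, a GTPase of early endosomes, was higher in KO after serum, at 0.43, and lower when starved, at -0.39. Both calls were lost without single arrays, the first without WT serum array 2 or KO serum array 1 (limma adjusted p = 0.0596 and 0.127) and the other without WT starved array 1, WT starved array 2 or KO starved array 2 (adjusted p = 0.0667, 0.0725 and 0.101). Kat2b, an acetyltransferase that modifies SATB1, did not pass the test in either state on its brighter probe set, at -0.34 (limma adjusted p = 0.0584, and 0.0424 to 0.0483 without any 1 starved array) and 0.03, while its other probe set was lower after serum, at -0.53 (limma adjusted p = 0.0139). Mocs1, of molybdenum cofactor synthesis, gave 0.07 after serum, not past the test, and was 0.98 higher when starved, a call lost without WT starved array 2, KO starved array 1 or KO starved array 2 (limma adjusted p = 0.183, 0.0814 and 0.0665). Dazl, a germ cell gene, lay below the filter. Tbc1d5 and Kcnh8, the genes next to Satb1 on either side, had no probe set that names them alone, so the nearest measured genes are not its direct neighbours.

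**Figure D5:**
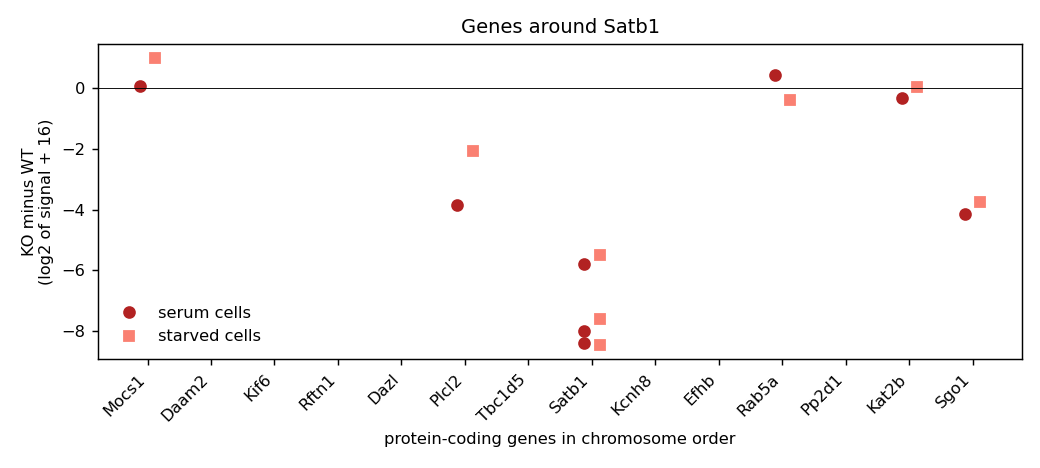
KO minus WT difference in log2 of signal plus 16 for the protein-coding genes around Satb1 in chromosome order, with circles for serum cells and squares for starved cells. Genes without a point were not measured or lay below the filter, and Plcl2, Satb1 and Sgo1 have both points below -2 while Rab5a, Kat2b and Mocs1 lie within 1 of 0.

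The labelled cell type was checked on markers of fibroblasts and of other cells. Of 11 fibroblast genes, 10 were tested, and the signals of all 11 summed to 289083 to 385384 on KO arrays and 167577 to 187982 on WT arrays, so the sum was higher in KO cells. Of the 10, 7 were higher and 1 lower in KO after serum and 8 higher and 1 lower when starved. Of all tested probe sets, 22.7% were higher and 27.5% lower in KO after serum, and 22.8% and 24.8% when starved. Collagen genes led the gap in the sum, with Col1a2 at 62376 and 66212 in KO serum cells and 69881 and 91077 in KO starved cells, against 743 and 9443 in WT serum cells and 581 and 8871 in WT starved cells. Pdgfra, the platelet-derived growth factor receptor that marks fibroblasts, read 6040 and 6981 in KO serum cells and 11152 and 15782 in KO starved cells, against 13.5 and 13.3 in WT serum cells and 124 and 129 in WT starved cells. Pdgfra passed the filter through its KO arrays alone. On Col1a2 the first WT array read lower than the other in both serum states. The KO minus WT difference of Col1a2 after serum, 4.58, was 2.76 without WT serum array 1, not past the test (limma adjusted p = 0.082). Dcn, a matrix proteoglycan, went the other way, at -0.86 after serum and -1.13 when starved, calls lost without WT serum array 1 or either KO serum array (limma adjusted p = 0.0667 to 0.161) and without WT starved array 1 (adjusted p = 0.0523), and Fn1, fibronectin, did not pass the test. The WT cells, which held Satb1, had less Col1a2 and Pdgfra signal than KO cells and more Dcn signal, and the part of these differences in the Satb1 result was not tested.

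Markers of T cells and leukocytes, the cells in which Satb1 is usually highest, were at the floor in both genotypes. None of the 9 on the array passed the filter, and their signals summed to 904 to 1258 on KO arrays and 839 to 1371 on WT arrays. Of 7 neural markers, 3 were tested, and their sum was 2847 to 3622 on KO arrays and 4919 to 8330 on WT arrays. Nes, an intermediate filament protein, and Tubb3, a tubulin, were lower in KO, at -3.50 and -3.30 after serum and -2.56 and -4.18 when starved, and Map2, a microtubule-associated protein, was higher, at 2.29 and 2.26. Of 7 epithelial markers 2 were tested, with sums of 1477 to 1907 on KO arrays and 1832 to 2138 on WT arrays. Over both serum states together, the epithelial, macrophage and endothelial sums overlapped between the genotypes and the neural sums did not. Within each state the macrophage sums did not overlap. They were 2626 to 2788 in KO against 2968 to 3747 in WT after serum, and 3272 to 3477 against 2556 to 2577 when starved. Of 3 macrophage genes tested, 1 was lower in KO after serum and 1 higher when starved, beside 50.2% and 47.6% of all tested probe sets called. The part of the neural markers in the Satb1 result was not tested.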

How the data were processed

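Total RNA from 8 fibroblast samples was hybridised to 1 array each. The authors deposited intensity values on a linear scale, 1 per probe set, computed with MAS5 (no version given) per the submitters' processing notes. Because MAS5 removes mismatch signal, values near the floor carry much noise. The platform's name and detection calls were not used here.

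Of 22690 probe sets, 64 controls were left out, and 14947 at or above their array's 40th percentile on at least 2 of 8 arrays were tested. Log2 of signal plus 16 was fitted with limma 3.58.1 in R 4.3.3 (group means over 8 arrays, eBayes with a mean-variance trend, 4 residual and 6.07 prior degrees of freedom, two-sided tests). P-values were adjusted by Benjamini-Hochberg over all tested probe sets, with calls below 0.05. An exact permutation test of 2 arrays against 2 cannot give a p under 0.333. Comparisons that share arrays are not independent. For a listed gene the probe set of highest average log2 signal was used.

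Satb1 and the 7 lists were chosen with earlier results of these data known. Genes were named by a rule: measured CUT family members and regulators, and in other lists up to 4 called alike in both genotype comparisons and up to 2 called with serum, by size, plus the 10 most alike profiles, the 5 largest falls and 3 measured neighbours on either side. Hdac1, Ctcf, Rad21, Smc1a, Smc3, Stag2, Pds5a, Zbtb7b, Bcl2, Egr1, Egr2, Bdnf, Egfr, Mmp2, Mmp3, Vegfb, Vim, Nme1, Bpgm, Col1a2, Pdgfra, Dcn, Fn1, Nes, Tubb3 and Map2 were named after their values were seen. The fit was tested on simulated data. Alternatives changed the constant, scaling, filter, variance trend, arrays fitted or a set number block, or left out 1 array.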

Additional observations from a re-analysis of the deposited data

Results flagged for a closer look

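Among 59 named genes checked, 7 had a serum response that differed between the genotypes by limma's interaction test, all given as KO minus WT on the log2 scale. The share of all tested probe sets called by that test was not counted, and some of the 59 genes were named for their calls. The count of 7 therefore describes these genes only. The 59 included Dazl, which lay below the filter and had no test. Apart from Med23, they left out the genes named for a profile like that of Satb1 or for a large fall. Myc differed by 1.15 (adjusted p = 0.00569), rising by 1.73 in KO cells and 0.59 in WT cells. Snai1, a repressor of epithelial genes on the breast carcinoma list, differed by -1.75 (adjusted p = 0.0217), with a response of 0.54 in KO cells that did not pass the test and a rise of 2.29 in WT cells. With arrays centred on their median, the Snai1 response in KO cells did pass, at 0.69 (limma adjusted p = 0.0455). Ccn2, a matrix protein induced by serum, differed by 1.14 (adjusted p = 0.0494), rising by 2.03 in KO cells and 0.89 in WT cells. The WT rise of Myc was not past the test without WT starved array 1, WT starved array 2 or WT serum array 1 (limma adjusted p = 0.116, 0.0541 and 0.138). That of Ccn2 was not without WT starved array 1, WT serum array 1 or WT serum array 2 (adjusted p = 0.124, 0.16 and 0.065). Hnrnpu, a scaffold attachment factor, differed by 0.80 (adjusted p = 0.0214), with a rise of 0.86 in KO cells and a value of 0.06 in WT cells, the WT value not past the test. Its other probe sets rose by 0.40 to 1.44 in KO cells and gave 0.08 to 0.46 in WT cells. On 1450849_at the 2 values were 0.67 in KO and 0.46 in WT cells. Smarca5 differed by 0.75 (adjusted p = 0.0315), with a rise of 0.70 in KO cells and a value of -0.05 in WT cells, not past the test. Rab5a, the nearest measured gene after Satb1, differed by 0.82 (adjusted p = 0.0326), with a rise of 0.84 in KO cells and a value of 0.03 in WT cells, not past the test. Egr1, a serum-induced transcription factor, differed by 2.01 (adjusted p = 0.00201), rising by 4.61 in KO cells and 2.60 in WT cells. Satb1 has no place in this group, since its own difference of responses was not tested.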

How the results depend on the processing

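The Satb1 loss kept its direction under all 18 alternatives on each probe set. Its KO minus WT value after serum for 1416007_at, 1416008_at and 1436182_at was -9.21, -9.75 and -6.48 with a constant of 1, -6.57, -6.83 and -4.64 with 64, and -4.80, -4.99 and -3.08 with the largest (16 times 16). The starved values were -8.67, -10.05 and -6.10, then -6.41, -6.89 and -4.45, then -4.81, -5.06 and -2.95. Median centring gave -5.61 for 1436182_at after serum. Leaving out 1 array at a time gave starved values of -8.53 to -6.71 (1416007_at), -8.85 to -8.04 (1416008_at) and -5.63 to -5.36 (1436182_at). After serum the ranges were -8.33 to -7.69, -8.43 to -8.34 and -5.87 to -5.69. The difference of serum responses ran from -1.30 to 0.52, -0.34 to 0.47 and -0.42 to -0.15, so its sign on 1416007_at and 1416008_at turned with single starved KO arrays, and it was -0.13 on 1436182_at with the largest constant. Leaving out an array, the KO serum response of 1416007_at ran from -1.41 to 0.41, and no Satb1 serum response passed the test under the alternatives that kept all arrays.

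Among the lists, calls between genotypes moved by over 1.5 times in few settings. T-cell genes called in starved cells were 2 with a constant of 64 or the largest constant, with no filter, with a 60th percentile filter and without the variance trend, and 5 after serum with no filter. Partners called after serum were 5 without the trend, and folding genes called in starved cells were 6 without the trend and 6 in the fit to the arrays compared, which also gave 4 neuronal genes after serum. With 1 array left out, the T-cell count in starved cells ran from 1 to 2, the partner count after serum from 4 to 9, the folding count in starved cells from 4 to 12 and the neuronal count after serum from 1 to 3. Centring moves every genotype difference after serum up by 0.163, which turns the sign of the median of the CUT, folding and breast carcinoma lists there. Of 232 named gene values, 170 kept their side of the threshold, 38 lost a call and 24 gained one under some alternative, and 0 called values changed sign.

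The set numbers were not treated as pairs: their deviations correlated at 0.214 between the WT groups, 0.097 between the KO groups and -0.034 to 0.006 across genotypes. With the replicate block, 1413 probe sets rose and 2081 fell with serum in KO cells, 376 and 258 in WT cells, 3423 were higher and 4158 lower in KO after serum, and 3441 and 3744 when starved. The block left the Satb1 differences at -8.01, -8.38 and -5.78 after serum. Trp63 passed the test with the block in both states (limma adjusted p = 0.029 after serum and 0.0171 when starved), and Chd4 after serum did not (adjusted p = 0.0534). Signals near the floor and 2 arrays a group limit the precision of every KO value.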
